A study of Mus musculus with 2 samples.

Results

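The 10 genes described here are 6 cytokine receptor chains, Il4ra, Il13ra1, Il15ra, Il2rg, Ifngr1 and Csf2rb, and 4 feedback inhibitors of cytokine signalling, Socs1, Socs2, Socs3 and Cish. They were chosen by gene symbol from the 32285 genes in the deposited single-cell matrix, and each symbol matched 1 gene. The cells came from the lungs of zbtb46-cre x rosa26-yfp mice, in which Cre made under the Zbtb46 locus, a gene of the conventional dendritic cell lineage, turns on YFP and leaves it on in all descendants of a cell. Adult mice were 8 weeks old and neonatal mice 7 days old, and from both the viable cells positive for CD45.2 and YFP were isolated by cell sorting. Every mouse carried both alleles and none received a treatment named in the labels. There were 2 pools per age, prepared apart from each other, and each pool held cells of at least 5 mice. The 2 pools of an age carried different antibody hashtags and were put together before droplet capture, so age and capture run cannot be told apart.

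Cytokines of these families bind paired receptor chains whose Janus kinases phosphorylate STAT proteins, and the STATs then enter the nucleus and switch on target genes. SOCS proteins and CIS are among those targets, and they bind the receptors, kinases or phosphorylated tails and damp the signal. In lung dendritic cells this circuitry reads GM-CSF, type 2 cytokines, interferon gamma and the common gamma chain cytokines.

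Of 14710 barcodes, 12739 cells were kept, 2031 and 1854 in the adult pools and 4408 and 4446 in the neonatal pools. Total gene UMIs per pool lay between 8172362 and 20346024, and median UMIs per kept cell between 3052 and 3714.5. Pools of the same age shared 0 barcode sequences, and 14 sequences occurred at both ages. Clusters were named from marker lists, each as a class that resembles the cell type, since no deposited annotation was used. The labels call the cells dendritic cells, but monocytes, neutrophils, basophils or mast cells and lymphocytes were also among them by their markers. Levels are UMI counts scaled to the total of the class in the pool (CPM). Zbtb46 averaged 91.1 CPM in mature dendritic cells (DCs), 70.2 CPM in type 1 conventional DCs (cDC1) and 45.1 CPM in type 2 (cDC2), against at most 4.73 CPM in the monocyte, neutrophil, basophil or mast cell and T cell classes, and 45.1 CPM in the neonatal endothelial cells. All 10 cDC1 markers and all 11 mature DC markers had UMIs in their classes. In a part of the adult cDC1 cells, given below as cluster 23, the cDC1 list was not raised. The cDC2 class also held C1q macrophage transcripts, whose summed level was 365 and 1726 CPM in the adult pools and 574 and 1151 CPM in the neonatal pools. The T cell class was mixed. Its NK cell markers summed to 7094 and 1493 CPM in the adult pools and 3754 and 4170 CPM in the neonatal pools. Its T cell markers summed to 3088 and 4149 CPM in the adult pools and 2665 and 2657 CPM in the neonatal pools. The adult pools held 0.222 and 0.122 CPM of Xist, against 753 and 650 CPM in the neonatal pools. Ddx3y, on the Y chromosome, was at 72.2 and 80.1 CPM in the adult pools, against 0.541 and 11.8 CPM in the neonatal pools, so age and sex cannot be told apart across the pools.

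Each gene had its own order of cell classes. Levels were averaged over the pools with at least 20 cells of a class, for classes with at least 2 such pools, and the age difference is a part of each range. Because the clusters were built from the same cells, these levels are a description with no test, although the 10 genes themselves were kept out of the clustering.

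Among the receptors, Il4ra, the shared chain for IL-4 and IL-13, averaged 199 CPM in mature DCs (82.7 to 324 over pools) and 101 CPM in neutrophils (67.8 to 141), ranges that overlap. It averaged 40.3 CPM in cDC2 and only 10.2 CPM in cDC1. Il13ra1, which pairs with Il4ra, averaged 131 CPM in neutrophils, 104 CPM in nonclassical monocytes and 90.1 CPM in classical monocytes, again with overlapping pools. It averaged at most 3.00 CPM in basophils or mast cells, T cells and NK cells. Il15ra, which holds IL-15 on the surface for presentation to neighbouring lymphocytes, averaged 185 CPM in mature DCs, where its lowest pool was at 82.7 CPM. Neonatal endothelial cells came next with 17.4 CPM, and no pool of any other class exceeded 22.9 CPM.

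Il2rg, the common gamma chain, averaged 312 CPM in NK cells, 292 CPM in innate lymphoid cells and 243 CPM in the mixed T cell class. The lowest pool of the T cell class, at 208 CPM, lay above every myeloid pool. Mature DCs followed with 132 CPM among the DC classes, and cDC1 had 8.13 CPM. Ifngr1, the ligand-binding chain for interferon gamma, averaged 835 CPM in nonclassical monocytes (828 to 853), above every pool of the classical monocytes (559 to 638). It averaged 368 CPM in cDC1 and 294 CPM in cDC2, with overlapping pools. Mature DCs had the lowest average for Ifngr1, 44.7 CPM. Csf2rb, the shared signalling chain for GM-CSF, IL-3 and IL-5, averaged 992 CPM in basophils or mast cells (931 to 1130), above every pool of mature DCs (296 to 557). It averaged 3.64 CPM in T cells.

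Among the feedback genes, Socs2, which restrains growth hormone and related receptors, averaged 467 CPM in mature DCs (345 to 605). Basophils or mast cells were next with 83.7 CPM, and the highest pool outside mature DCs was at 137.5 CPM. Socs3, an inhibitor of gp130 and G-CSF receptor signalling, averaged 437 CPM in neutrophils, 229 CPM in cDC2 and 138 CPM in nonclassical monocytes. The neutrophil pools ran from 176 to 750 CPM and overlapped those of cDC2. Cish, which encodes CIS and is a STAT5 target, averaged 139 CPM in the neonatal innate lymphoid cells and 68.0 CPM in cDC2. Socs1, an inhibitor of interferon signalling, averaged 61.9 CPM in neonatal innate lymphoid cells, 30.9 CPM in T cells and 28.2 CPM in mature DCs. The plot of levels by class and pool shows that Socs2 and Il15ra stood out in mature DCs, whereas Ifngr1 was lowest there.

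**Figure D1:**
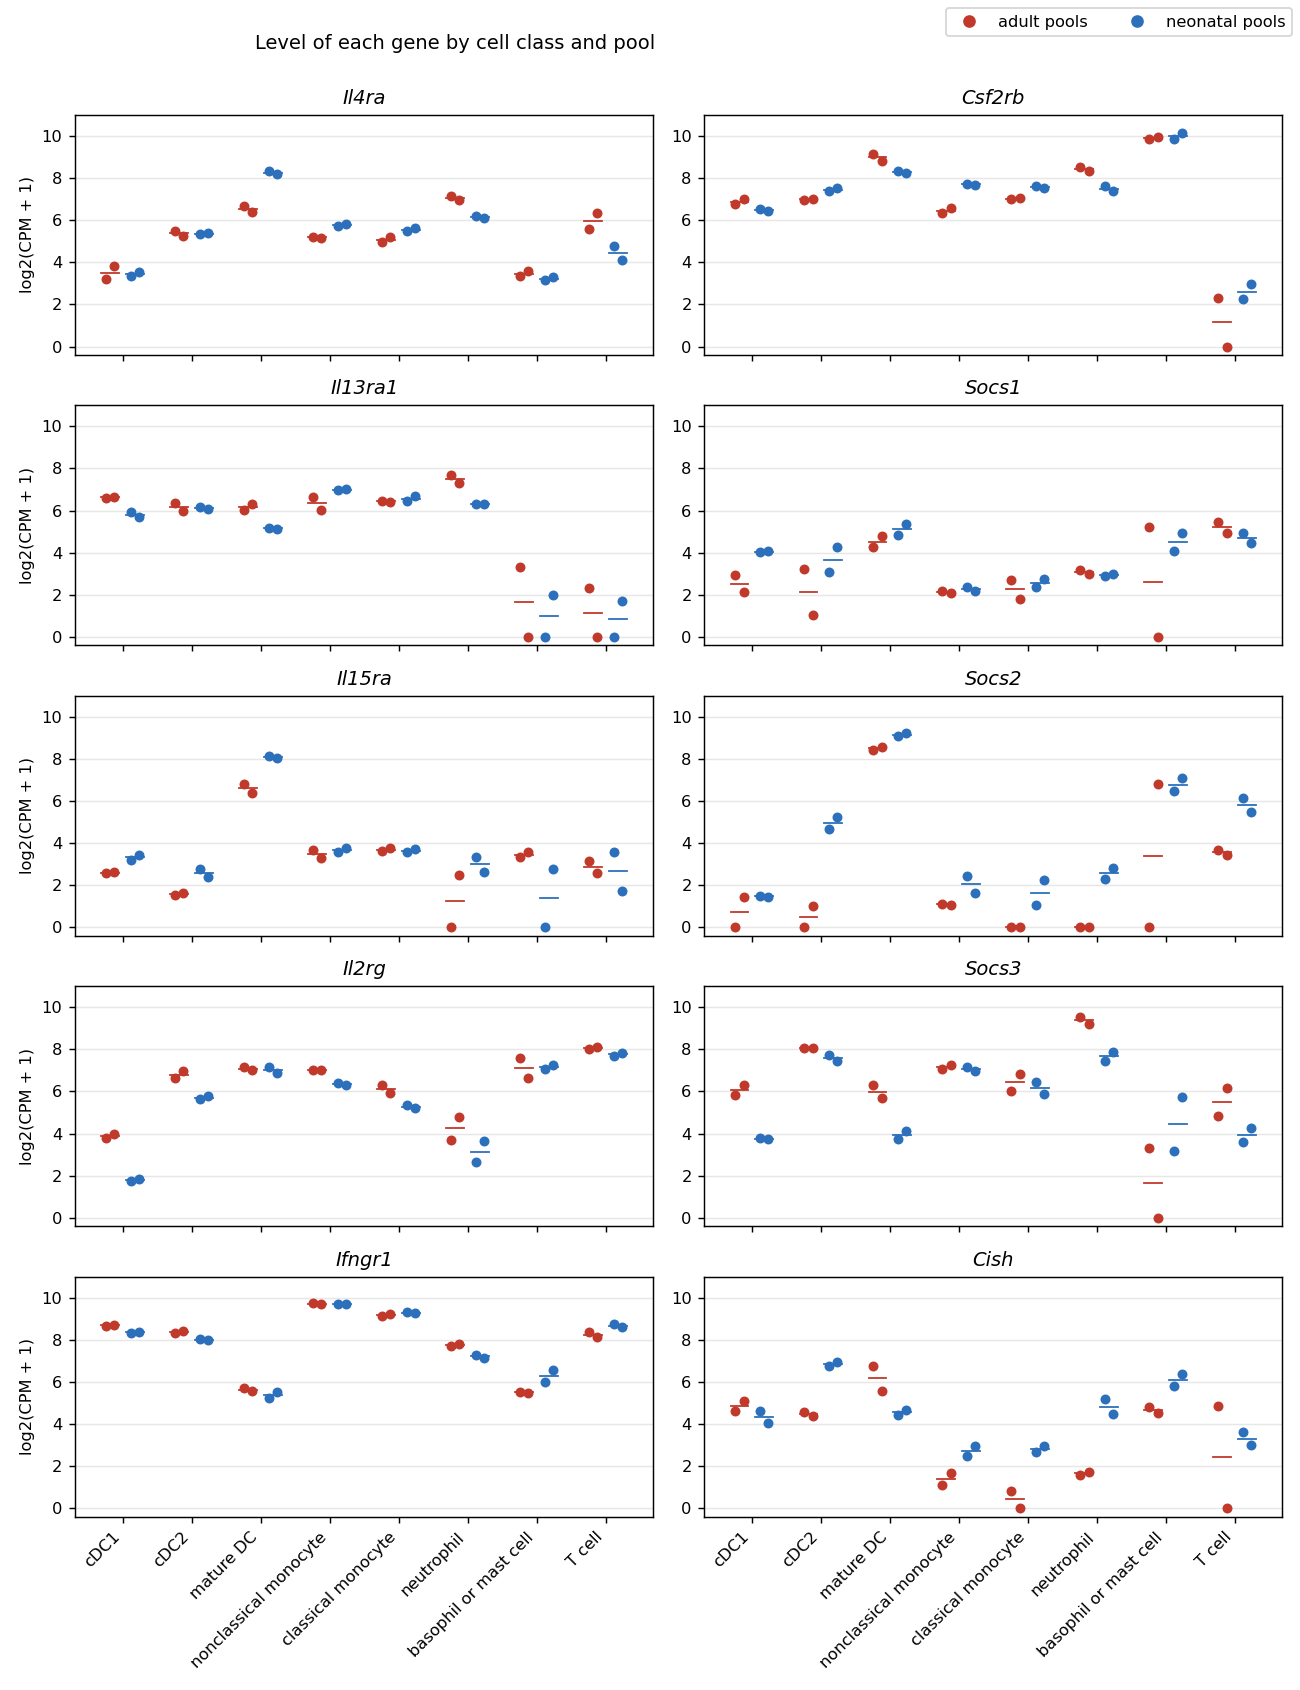
Level of each of the 10 genes in 8 cell classes, as log2(CPM + 1) on the vertical axis, with 1 point per pool (adult red, neonatal blue) and a line at the mean of each age. Socs2 and Il15ra are highest in mature DCs and Csf2rb in basophils or mast cells, and Ifngr1 is highest in nonclassical monocytes.

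Adult pools were then compared with neonatal pools within each class that had at least 20 cells in all 4 pools. Summed UMIs were tested with edgeR's quasi-likelihood test over all genes that passed the filter on low counts, and a gene was called at a Benjamini-Hochberg adjusted p under 0.05. With 2 pools per age, the p-values measure the spread between these pools. Pools without overlap are given as a description, since they also occurred in classes where no member was called. The share of all genes without overlap was not counted. In cDC1, 7 of the 9 genes tested were called, 6 higher and 1 lower in adults, where 26.8% of all genes tested were called (15.2% higher and 11.6% lower). In cDC2, 5 of 9 were called, 3 higher and 2 lower, beside 15.6% of all genes (9.55% higher and 6.1% lower). In mature DCs, 7 of 10 were called, 4 higher and 3 lower, beside 30.1% of all genes (15.6% higher and 14.5% lower). In neutrophils, 6 of 7 were called, 5 higher and 1 lower, beside 32.1% of all genes (15.9% higher and 16.2% lower). Nonclassical monocytes had 3 of 7 called, 1 higher and 2 lower, beside 19.5% of all genes (9.83% higher and 9.62% lower). Classical monocytes had 3 of 9 called, 1 higher and 2 lower, beside 18.7% of all genes (11.1% higher and 7.55% lower). Among basophils or mast cells, 0 of 5 were called by edgeR and 0 by DESeq2, 1 of them had an unadjusted p under 0.05, and 6.61% of all genes were called (3.65% higher and 2.96% lower). T cells had 0 of 4 called by edgeR and 0 by DESeq2, 3 with an unadjusted p under 0.05, beside 1.18% of all genes (0.996% higher and 0.184% lower). Genes outside the tests had too few UMIs for the filter.

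The classes differed in make-up between the ages, and these counts have to be read beside that. Of the cDC1, cluster 9, led by Plet1, Epcam and Cldn1, held 413 of 549 adult cells (75.2%) and 64 of 1561 neonatal cells (4.1%), and cluster 1 held the rest. Of the mature DCs, cluster 10, led by Ccl22 and Fabp5, held 198 of 216 adult cells (91.7%) and 233 of 1043 neonatal cells (22.3%). Cluster 5, led by Fscn1 and Ccl5, held the rest. Nonclassical monocytes were mostly cluster 7 in adults and cluster 0 in neonates. Classical monocytes were mostly cluster 11 in adults and cluster 2 in neonates. Neutrophils were cluster 3 in adults and almost entirely clusters 6 and 14 in neonates. Cluster 3 was led by S100a9 and S100a8, cluster 6 by Il1b and Cxcl2, and cluster 14 by Camp, Ngp and Ltf. Cluster 14 held 88 and 132 neonatal cells and 0 adult cells. No monocyte or neutrophil cluster had at least 20 cells in every pool, so the ages were not compared inside them. Age and make-up cannot be told apart in these classes. The cDC2 formed a single cluster here, with 152 and 128 adult and 374 and 253 neonatal cells. At a finer clustering the cDC2 class held 90 and 75 adult and 309 and 189 neonatal cells. C1q macrophage cluster 20 there held 24 and 27 adult and 70 and 65 neonatal cells. Unnamed cluster 22 there held 50 and 32 adult and 37 and 32 neonatal cells. A single cluster therefore does not mean equal make-up at both ages. Comparisons inside single clusters follow those of the classes.

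**Figure D2:**
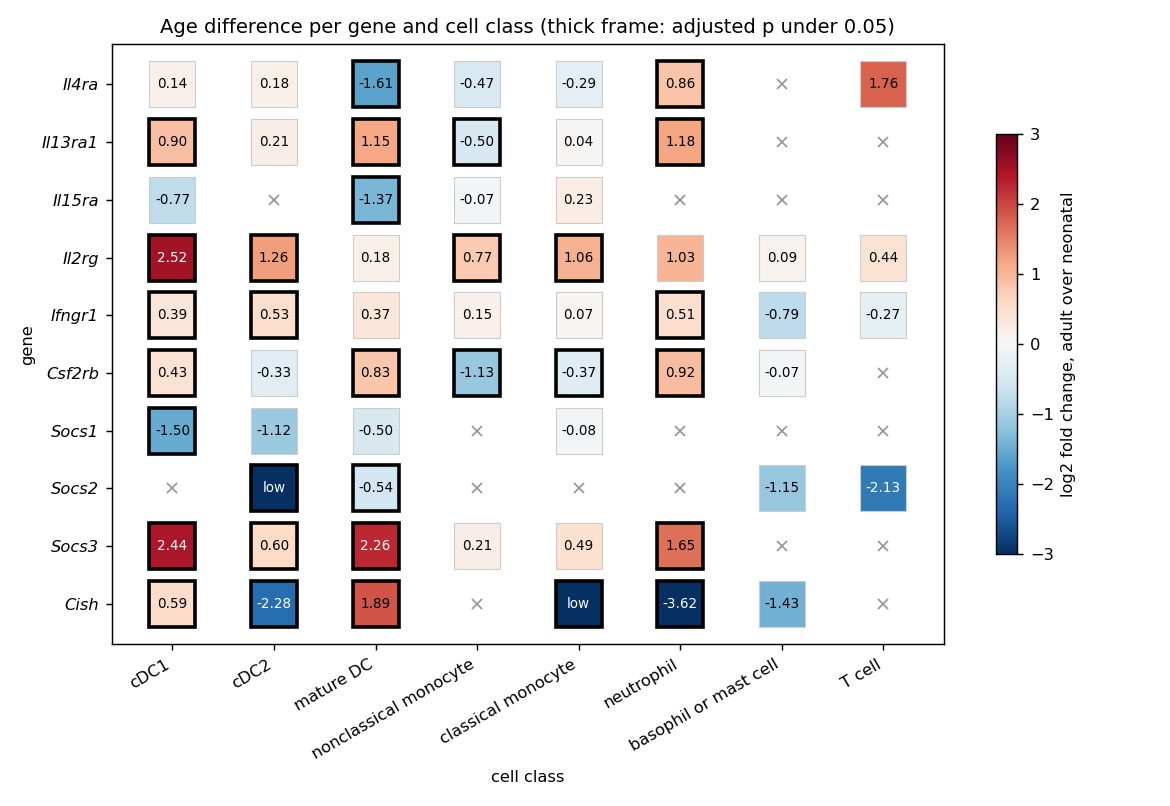
Log2 fold change, adult over neonatal, for each gene (vertical) and cell class (horizontal), red where higher in adults and blue where lower. A thick frame marks an adjusted p under 0.05 in edgeR's quasi-likelihood test, a cross a gene with too few UMIs to test, and the word low a total of at most 3 UMIs at 1 age, for which the text gives a ratio of UMIs. Il2rg is positive in every class tested, while Cish is positive in cDC1 and mature DCs and negative in cDC2, neutrophils and classical monocytes.

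Il4ra (chr7:125552120-125579474, + strand, GRCm38) fell in adult mature DCs and rose in adult neutrophils. In mature DCs, Il4ra was at 102 and 82.7 CPM in the adult pools, against 324 and 287 CPM in the neonatal pools. Both adult pools lay far below both neonatal pools, with a log2 fold change of -1.61 ± 0.14 (SE, adjusted p = 3.0e-09). In neutrophils, Il4ra was at 140.5 and 121 CPM in the adult pools, against 73.1 and 67.8 CPM in the neonatal pools. The adult pools were higher and did not overlap the neonatal ones, with a log2 fold change of 0.86 ± 0.18 (adjusted p = 1.05e-04). In cDC1 and cDC2 the pools of the ages overlapped, with log2 fold changes of 0.14 (adjusted p = 0.756) and 0.18 (adjusted p = 0.638).

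Il13ra1 (chrX:36112110-36171259, + strand) rose in adult cDC1, mature DCs and neutrophils and fell in adult nonclassical monocytes. In cDC1, Il13ra1 was at 95.8 and 100.1 CPM in the adult pools, against 59.3 and 50.2 CPM in the neonatal pools, a log2 fold change of 0.90 ± 0.10 (adjusted p = 7.8e-08). In mature DCs, Il13ra1 was at 64.2 and 79.8 CPM in the adult pools, against 35.4 and 34.2 CPM in the neonatal pools (log2 fold change 1.15 ± 0.21, adjusted p = 1.04e-04). Neither class had overlapping pools. In neutrophils, Il13ra1 was at 208 and 158 CPM in the adult pools, against 79.7 and 77.5 CPM in the neonatal pools (log2 fold change 1.18 ± 0.16, adjusted p = 3.3e-08). Nonclassical monocytes went the other way, with 99.9 and 64.8 CPM of Il13ra1 in the adult pools, against 123 and 128 CPM in the neonatal pools (log2 fold change -0.50 ± 0.14, adjusted p = 0.00292). The adult pools differed from each other here, and without adult pool 2 the log2 fold change was -0.21 (adjusted p = 0.486). DESeq2 did not call it (adjusted p = 0.206), and the call in mature DCs was lost after thinning each cell to 1500 UMIs (log2 fold change 1.01, adjusted p = 0.0527). In cDC2, Il13ra1 was at 81.7 and 63.0 CPM in the adult pools and 71.8 and 66.4 CPM in the neonatal pools, which overlap (log2 fold change 0.21, adjusted p = 0.441), and it was called higher in adults with the finer clusters (0.59, adjusted p = 0.00562).

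Il15ra (chr2:11705290-11734317, + strand) fell in the class where it was abundant. In mature DCs, Il15ra was at 112 and 82.7 CPM in the adult pools, against 283 and 261 CPM in the neonatal pools. All adult values were lower, with a log2 fold change of -1.37 ± 0.14 (adjusted p = 4.7e-08). A UMI of Il15ra was seen in 34.5% and 37.9% of adult mature DCs, against 61.3% and 58.0% of neonatal ones. After thinning, which kept 112 and 101 adult and 504 and 498 neonatal cells, the shares were 13.4% and 10.9% in the adult pools, against 34.9% and 33.7% in the neonatal pools. For comparison, in cDC1 3.77% and 3.46% of adult cells and 5.29% and 6.28% of neonatal cells had a UMI, at median depths of 6698 to 7911 UMIs per cell, above the 4000.5 to 6324 of mature DCs. The RNA of IL-15 moved the same way over the mature DC class, with Il15 at 65.6 and 48.7 CPM in the adult pools, against 113 and 109 CPM in the neonatal pools (log2 fold change -0.84 ± 0.18, adjusted p = 6.2e-04). Inside mature DC cluster 10, Il15ra did not fall (log2 fold change 0.36, adjusted p = 0.488), and values of Il15 inside the clusters are not given here.

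Il2rg (chrX:101264378-101268255, - strand) rose in adult cDC1, cDC2 and both monocyte classes. In cDC1, Il2rg was at 12.8 and 14.8 CPM in the adult pools, against 2.40 and 2.54 CPM in the neonatal pools (log2 fold change 2.52 ± 0.32, adjusted p = 8.7e-07). If all neutrophil markers seen in cDC1 were free RNA, free RNA at that rate would make up at most 24.2% of the neonatal Il2rg level, a contribution that was not tested. In cDC2, Il2rg was at 99.5 and 123 CPM in the adult pools, against 49.3 and 53.8 CPM in the neonatal pools (log2 fold change 1.26 ± 0.15, adjusted p = 3.8e-08). In nonclassical monocytes, Il2rg was at 128.0 and 128.5 CPM in the adult pools, against 84.8 and 79.0 CPM in the neonatal pools (log2 fold change 0.77 ± 0.13, adjusted p = 2.1e-07). In classical monocytes, Il2rg was at 77.4 and 60.4 CPM in the adult pools, against 39.8 and 35.7 CPM in the neonatal pools (log2 fold change 1.06 ± 0.16, adjusted p = 1.30e-06). No pool of either age overlapped the other age in these 4 classes. In mature DCs, where Il2rg was at 142 and 128.5 CPM in the adult pools and 142 and 116 CPM in the neonatal pools, the difference was not called (log2 fold change 0.18, adjusted p = 0.385). In neutrophils, Il2rg was at 12.1 and 26.3 CPM in the adult pools, against 5.23 and 11.5 CPM in the neonatal pools, without overlap but not called (log2 fold change 1.03, adjusted p = 0.0759, and 0.0385 with the replicate block), and the gene was called without adult pool 1 (1.54, adjusted p = 0.0208).

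Il13ra1 and Il2rg lie on the X chromosome, and the sexes of the pools differed. Neonatal pool 2 held cells with Y-linked UMIs and cells with Xist UMIs, which were compared as a description within 1 pool. Among its nonclassical monocytes, Il2rg was at 81.4 CPM (95% exact Poisson interval 50.4 to 124.5) in 96 cells with Y-linked UMIs and at 78.7 CPM (67.1 to 91.7) in 762 cells with Xist UMIs. Among its cDC1, Il13ra1 was at 43.3 CPM (30.2 to 60.2) in 118 cells with Y-linked UMIs and at 49.5 CPM (41.4 to 58.7) in 396 cells with Xist UMIs. In classical monocytes, Il13ra1 was at 153.6 CPM (95.1 to 234.7) in 32 cells with Y-linked UMIs and at 96.6 CPM (82.3 to 112.7) in the cells with Xist UMIs. There Il2rg was at 14.6 CPM (1.77 to 52.8) in the cells with Y-linked UMIs and at 35.8 CPM (27.3 to 46.1) in those with Xist UMIs. The intervals overlapped for both genes in each of the 5 classes compared, and they cover counting error only.

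Ifngr1 (chr10:19591949-19610229, + strand) rose by modest amounts in adult cDC1, cDC2 and neutrophils. In cDC1, Ifngr1 was at 404 and 414 CPM in the adult pools, against 323 and 330 CPM in the neonatal pools (log2 fold change 0.39 ± 0.05, adjusted p = 1.93e-06). In cDC2, Ifngr1 was at 324 and 342 CPM in the adult pools, against 261.5 and 249.5 CPM in the neonatal pools (log2 fold change 0.53 ± 0.09, adjusted p = 4.3e-05). In neutrophils, Ifngr1 was at 207 and 223 CPM in the adult pools, against 154 and 141 CPM in the neonatal pools (log2 fold change 0.51 ± 0.13, adjusted p = 0.00139). The pools did not overlap in these classes. The calls in cDC1 and cDC2 were lost after thinning (adjusted p = 0.361 and 0.273) at log2 fold changes of 0.16 and 0.34. The neutrophil call was lost with DESeq2 at nearly the same fold (0.51, adjusted p = 0.0813) and with the stricter cell filter (0.34, adjusted p = 0.592), which left 13 cells in each adult pool. Nonclassical monocytes held nearly the same level, 853 and 831 CPM in the adult pools and 828 and 829 CPM in the neonatal pools (log2 fold change 0.15, adjusted p = 0.0744). In classical monocytes the adult CPM of Ifngr1 was lower, 559 and 588 CPM against 638 and 612 CPM in the neonatal pools, while the fitted log2 fold change was 0.07 (adjusted p = 0.502). With the finer clusters it was called higher in adults (0.27, adjusted p = 0.00237). Mature DCs, the class with the lowest Ifngr1, held 51.7 and 45.8 CPM in the adult pools and 36.7 and 44.7 CPM in the neonatal pools (log2 fold change 0.37, adjusted p = 0.230). TMM scaling put the log2 fold changes of classical monocytes 0.193 above the ratio of plain CPM, and those of cDC2, mature DCs, nonclassical monocytes and T cells 0.147, 0.109, 0.125 and 0.18 above it.

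Csf2rb (chr15:78325752-78353847, + strand) rose in adult cDC1, mature DCs and neutrophils and fell in both adult monocyte classes. In mature DCs, Csf2rb was at 557 and 453.5 CPM in the adult pools, against 318 and 296 CPM in the neonatal pools (log2 fold change 0.83 ± 0.11, adjusted p = 1.56e-06). Finer clusters of mature DCs went in both directions for Csf2rb, as given below. In neutrophils, Csf2rb was at 372 and 325 CPM in the adult pools, against 193 and 166 CPM in the neonatal pools (log2 fold change 0.92 ± 0.12, adjusted p = 6.8e-09). The adult pools were the higher ones in both classes, although the neutrophil call was lost with the stricter cell filter (log2 fold change 1.04, adjusted p = 0.0524), which left 13 cells in each adult pool. In cDC1, Csf2rb was at 106 and 127 CPM in the adult pools, against 92.3 and 86.5 CPM in the neonatal pools (log2 fold change 0.43 ± 0.09, adjusted p = 6.3e-04), a call lost after thinning (adjusted p = 0.319). In nonclassical monocytes, Csf2rb was at 79.9 and 93.4 CPM in the adult pools, against 212 and 202 CPM in the neonatal pools (log2 fold change -1.13 ± 0.12, adjusted p = 1.47e-15). In classical monocytes, Csf2rb was at 128 and 130 CPM in the adult pools, against 195 and 184 CPM in the neonatal pools (log2 fold change -0.37 ± 0.10, adjusted p = 0.00652), a call that was lost without neonatal pool 1 (log2 fold change -0.33, adjusted p = 0.069), with DESeq2 (adjusted p = 0.178) and after thinning (adjusted p = 0.208). Both monocyte classes had all adult pools below all neonatal pools. In basophils or mast cells, the class with the highest Csf2rb, the level was 935 and 971 CPM in the adult pools and 931 and 1130 CPM in the neonatal pools (log2 fold change -0.07, adjusted p = 0.842). Cells of cDC2 held 124 and 127 CPM of Csf2rb in the adult pools, against 168 and 181 CPM in the neonatal pools, without overlap (log2 fold change -0.33, adjusted p = 0.0573, and 0.0344 with the replicate block).

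Csf2rb has a near-identical neighbour, Csf2rb2, which encodes the IL-3-specific chain of the mouse and lies 20030 bp away, so reads of the pair may be split and the values of both are uncertain. In nonclassical monocytes, Csf2rb2 was at 2.35 and 3.30 CPM in the adult pools, against 35.8 and 30.1 CPM in the neonatal pools (log2 fold change -3.38 ± 0.44, adjusted p = 3.5e-11). In mature DCs, Csf2rb2 was at 130 and 134 CPM in the adult pools, against 80.2 and 75.4 CPM in the neonatal pools (log2 fold change 0.87 ± 0.15, adjusted p = 5.3e-05). The sign was that of Csf2rb in both classes.

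Of the feedback genes, Socs1 (chr16:10782240-10785536, - strand) fell in adult cDC1. In cDC1, Socs1 was at 6.61 and 3.41 CPM in the adult pools, against 15.3 and 16.01 CPM in the neonatal pools, from 22 and 165 UMIs in all (log2 fold change -1.50 ± 0.29, adjusted p = 2.0e-04). Both adult pools were lower. In mature DCs, Socs1 was at 18.2 and 26.6 CPM in the adult pools, against 28.1 and 39.9 CPM in the neonatal pools, a difference that was not called (adjusted p = 0.2235). In cDC2, Socs1 rested on 10 adult and 48 neonatal UMIs with overlapping pools (log2 fold change -1.12, adjusted p = 0.312). It was called without neonatal pool 1 (-1.73, adjusted p = 0.0418) and without adult pool 1 (-3.29, adjusted p = 0.00837).

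Socs2 (chr10:95385362-95417180, - strand) fell in adult cDC2 and adult mature DCs. In cDC2, Socs2 was at 0 and 1.03 CPM in the adult pools, against 24.6 and 36.9 CPM in the neonatal pools. That was 1 UMI in all adult cDC2 and 121 UMIs in neonatal cDC2, so the adult level was 0.0166 of the neonatal one (95% counting interval 4.2e-04 to 0.0944, adjusted p = 3.7e-08). At the finer clustering, cDC2 cluster 8 had 0 and 0 CPM of Socs2 in the adult pools, against 17.4 and 28.5 CPM in the neonatal pools. The C1q macrophage cluster 20 had 0 and 5.29 CPM of Socs2 in the adult pools, against 62.8 and 66.0 CPM in the neonatal pools. In mature DCs, Socs2 was at 345 and 383 CPM in the adult pools, against 537 and 605 CPM in the neonatal pools (log2 fold change -0.54 ± 0.11, adjusted p = 3.3e-04), with every adult pool below every neonatal pool. Adult neutrophils held 0 UMIs of Socs2 and neonatal neutrophils 10, at least 3.27-fold lower with a floor of 3 counts over the adult pools. Adult classical monocytes held 0 UMIs and neonatal ones 13. In the neonatal classical monocytes the free-RNA bound from neutrophil markers, 7.61 CPM, was 315.2% of the Socs2 level of 2.41 CPM. The bound exceeds the level, so no fold is given, and the contribution of free RNA was not tested. No such bound was made for neutrophils, since it is set from their own markers.

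Socs3 (chr11:117966079-117970047, - strand) rose in adult cDC1, cDC2, mature DCs and neutrophils. In cDC1, Socs3 was at 55.8 and 77.9 CPM in the adult pools, against 12.9 and 12.3 CPM in the neonatal pools (log2 fold change 2.44 ± 0.16, adjusted p = 5.9e-12). In mature DCs, Socs3 was at 78.2 and 50.2 CPM in the adult pools, against 12.2 and 16.7 CPM in the neonatal pools (log2 fold change 2.26 ± 0.27, adjusted p = 2.95e-07). In both classes the lowest adult pool lay well above the highest neonatal pool. In cDC2, Socs3 was at 266 and 265.5 CPM in the adult pools, against 211 and 173 CPM in the neonatal pools (log2 fold change 0.60 ± 0.11, adjusted p = 4.0e-05), a call lost after thinning (adjusted p = 0.132). In neutrophils, Socs3 was at 750 and 586 CPM in the adult pools, against 176 and 234 CPM in the neonatal pools (log2 fold change 1.65 ± 0.13, adjusted p = 3.2e-08). These pools did not overlap either. Nonclassical monocytes had overlapping pools of Socs3, 133 and 152 CPM in adults and 144 and 125 CPM in neonates (log2 fold change 0.21, adjusted p = 0.214). In classical monocytes the pools also overlapped (log2 fold change 0.49, adjusted p = 0.519, and 0.0378 with the replicate block), and the gene was called without neonatal pool 1 (0.81, adjusted p = 1.26e-04) and without adult pool 1 (0.84, adjusted p = 1.81e-06).

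Cish (chr9:107296026-107302784, + strand) moved in opposite directions in different classes. In cDC2, Cish was at 22.5 and 19.6 CPM in the adult pools, against 107 and 123 CPM in the neonatal pools (log2 fold change -2.28 ± 0.19, adjusted p = 5.3e-12). Both adult pools were far below both neonatal pools. A UMI of Cish was seen in 7.89% and 8.59% of adult cDC2, against 35.8% and 41.5% of neonatal cDC2, and after thinning, which kept 148 and 125 adult and 373 and 250 neonatal cells, in 2.70% and 3.20%, against 12.3% and 16.4%. In classical monocytes 0.479% and 0% of adult cells and 1.87% and 2.35% of neonatal cells had a UMI, at median depths of 3982 to 6465 UMIs per cell, against 6447 to 7843.5 in cDC2. At the finer clustering, cDC2 cluster 8 held 21.8 and 20.4 CPM of Cish in the adult pools, against 114 and 134.5 CPM in the neonatal pools. The C1q macrophage cluster 20 held 72.1 and 37.0 CPM in the adult pools and 57.3 and 76.1 CPM in the neonatal pools, which overlap. In neutrophils, Cish was at 2.02 and 2.29 CPM in the adult pools, against 35.3 and 21.1 CPM in the neonatal pools. The adult neutrophil value rests on 4 UMIs and the neonatal one on 51, a ratio of 0.0801 (95% counting interval 0.021 to 0.218, adjusted p = 4.8e-07).

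Classical monocytes had 1 adult and 33 neonatal UMIs of Cish, a ratio of 0.0678 (95% counting interval 0.00167 to 0.405, adjusted p = 0.00411). Neutrophil markers stood at 9.68% of their whole-pool level in the neonatal classical monocytes and at 0.744% in the adult ones, and at the neonatal rate free RNA could supply up to 48.4% of the neonatal Cish level and, at the adult rate, 38.2% of the adult one, a contribution that was not tested. The call was lost without adult pool 2 (log2 fold change -2.65, adjusted p = 0.124) and with DESeq2 (adjusted p = 0.224). Nonclassical monocytes had 3 adult and 36 neonatal UMIs of Cish, too few to test, a ratio of 0.295 (95% counting interval 0.0581 to 0.933). In mature DCs, Cish was at 106 and 47.3 CPM in the adult pools, against 20.9 and 24.1 CPM in the neonatal pools (log2 fold change 1.89 ± 0.28, adjusted p = 3.7e-05). The adult pools were both higher but differed widely from each other. In cDC1, Cish was at 24.0 and 33.6 CPM in the adult pools, against 23.4 and 15.6 CPM in the neonatal pools (log2 fold change 0.59 ± 0.20, adjusted p = 0.0306). That call was lost without neonatal pool 2 (log2 fold change 0.33, adjusted p = 0.278), without adult pool 2 (0.36, adjusted p = 0.276) and with DESeq2 (adjusted p = 0.234), and its sign turned inside the clusters.

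In basophils or mast cells, Socs2 was at 0 and 110.3 CPM in the adult pools and 86.8 and 137.5 CPM in the neonatal pools (log2 fold change -1.15, adjusted p = 0.562), and it was called after thinning (-3.40, adjusted p = 0.0304). It was also called without adult pool 2 (adjusted p = 1.59e-04), where the adult side is 1 pool of 35 cells with 0 UMIs and the spread comes from the neonatal pools alone, so that fit gives no fold. In T cells, Socs2 had 5 adult and 38 neonatal UMIs, a ratio of 0.204 (95% counting interval 0.0625 to 0.518), which was not called (adjusted p = 0.1435). In T cells, Il4ra was at 47.3 and 79.6 CPM in the adult pools, against 26.0 and 16.1 CPM in the neonatal pools (log2 fold change 1.76, adjusted p = 0.1275), and it was called without adult pool 1 (2.18, adjusted p = 0.0221). These classes had the fewest cells, between 25 and 113 per pool. The T cell class also held NK cell transcripts, whose summed level differed between its adult pools (7094 and 1493 CPM).

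The other pairs of gene and class were not called or had too few UMIs to test. In cDC1, Il15ra was at 4.96 and 5.12 CPM in the adult pools, against 8.11 and 9.96 CPM in the neonatal pools, without overlap (log2 fold change -0.77, adjusted p = 0.0819), and Socs2 had 3 adult and 19 neonatal UMIs. In cDC2, Il15ra had 4 adult and 21 neonatal UMIs. In nonclassical monocytes, Il4ra was at 35.2 and 35.1 CPM in the adult pools, against 51.8 and 54.5 CPM in the neonatal pools, also without overlap (log2 fold change -0.47, adjusted p = 0.0896). Il15ra in that class had overlapping pools (-0.07, adjusted p = 0.936), Socs1 had 6 adult and 24 neonatal UMIs and Socs2 had 2 and 20. In classical monocytes, Il4ra was at 30.3 and 35.2 CPM in the adult pools, against 43.3 and 48.2 CPM in the neonatal pools (log2 fold change -0.29, adjusted p = 0.329). Il13ra1 (0.04, adjusted p = 0.875), Il15ra (0.23, adjusted p = 0.704) and Socs1 (-0.08, adjusted p = 0.948) had overlapping pools there. Neutrophils had 4 adult and 13 neonatal UMIs of Il15ra and 14 and 13 of Socs1. In basophils or mast cells, Cish (-1.43, adjusted p = 0.1725) and Ifngr1 (-0.79, adjusted p = 0.436) had both adult pools below the neonatal pools, and Il2rg had overlapping pools (0.09, adjusted p = 0.931), while Socs1, Socs3, Il4ra, Il13ra1 and Il15ra had at most 20 UMIs at either age. In T cells, Il2rg had both adult pools above the neonatal pools (0.44, adjusted p = 0.4325) and Ifngr1 had both below (-0.27, adjusted p = 0.662), neither called, and Socs1, Socs3, Cish, Il13ra1, Il15ra and Csf2rb had at most 21 UMIs at either age.

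Since Cish and Socs3 are STAT targets by background knowledge, start-site windows of the members were searched for the palindromic STAT-type motif TTCNNNGAA. RefSeq windows on GRCm38.p6, from 250 bases before to 50 bases after the start, were at hand for 8 of the 10 genes, with 2 windows for Il15ra. Socs2 and Csf2rb had no window and were not searched. The motif reads the same on both strands. It occurred in the windows of 2 of the 8 genes, Cish and Socs3, and in 8.3% of all 32851 windows, or 2582 of 27025 genes. A longer form with 4 free bases between TTC and GAA, also searched, occurred in 0 of the 8 genes. It occurred in 6.95% of all windows, or 2164 of 27025 genes. The sites are printed 5′ to 3′ on the strand of the gene with 10 bases on each side and the motif in capitals. Whether the motif bears on the age differences was not tested. Il13ra1 and Il2rg, whose windows lack the motif, were also called between ages in several classes.
Cish, chr9:107296649-107296677, + strand, motif from the start-site base: ccgcccagttTTCCTGGAAagttcttgga
Cish, chr9:107296660-107296688, + strand, motif 11 bases downstream of the start site: tcctggaaagTTCTTGGAAatctgtcaaa
Socs3, chr11:117969502-117969530, - strand, motif 154 bases upstream of the start site: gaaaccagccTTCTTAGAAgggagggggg
The Cish stretches overlap, and both motifs there lie at or just after the start site. A match is a stretch of letters, and binding was not measured.

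Inside the cDC1 clusters, several class-level differences were smaller or turned round. In cluster 1 (136 adult and 1497 neonatal cells), 3 of the 8 genes tested were called, 1 higher and 2 lower in adults, beside 8.32% of all genes. Ifngr1 was at 443 and 567 CPM in the adult pools of cluster 1, against 320 and 333 CPM in the neonatal pools (log2 fold change 0.69 ± 0.09, adjusted p = 5.2e-07). Cish in cluster 1 had 2 adult and 168 neonatal UMIs, a ratio of 0.122 (95% counting interval 0.0147 to 0.449, adjusted p = 0.00934), and Socs1 had 3 and 146 UMIs, a ratio of 0.211 (0.043 to 0.629, adjusted p = 0.0279). Socs3 was at 5.34 and 11.9 CPM in the adult pools of cluster 1 and at 10.99 and 11.2 CPM in the neonatal pools (log2 fold change -0.36, adjusted p = 0.797). The pools of Socs3, which did not overlap in the class as a whole, overlapped in this cluster. Il13ra1 had a log2 fold change of 0.06 there (adjusted p = 0.922). Il2rg, with 3 adult and 22 neonatal UMIs in cluster 1, was not tested, a ratio of 1.4 (95% counting interval 0.268 to 4.66).

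In cluster 9 (413 adult and 64 neonatal cells), 4 of the 7 genes tested were called, 1 higher and 3 lower in adults, beside 9.27% of all genes. Cish was at 30.1 and 44.1 CPM in the adult pools of cluster 9, against 104 and 66.8 CPM in the neonatal pools (log2 fold change -1.22 ± 0.32, adjusted p = 0.0122). Csf2rb was at 117 and 144 CPM in its adult pools, against 270.2 and 248 CPM in its neonatal pools (log2 fold change -0.97 ± 0.18, adjusted p = 3.7e-04). Both genes were lower in adults here and higher in adults over the class. Socs1 was at 7.53 and 3.74 CPM in the adult pools of cluster 9, against 41.6 and 42.9 CPM in the neonatal pools (log2 fold change -2.77 ± 0.53, adjusted p = 6.2e-04). Socs3 was at 71.0 and 98.8 CPM in the adult pools, against 54.0 and 38.2 CPM in the neonatal pools, without overlap but not called (log2 fold change 0.87 ± 0.33, adjusted p = 0.106). Il13ra1 was the higher one (log2 fold change 0.93 ± 0.30, adjusted p = 0.0465). Il2rg, with 54 adult and 4 neonatal UMIs in cluster 9, was not called (0.96, adjusted p = 0.484). Socs1 was the gene lower in adults in cluster 1, in cluster 9 and in the class.

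Finer clustering split the adult cluster 9 cells. An unnamed cluster 23, led by Plet1, Ccl17, AA467197, Cldn1 and Lmna, held 65 and 66 cells in the adult pools and 12 and 5 in the neonatal pools. Its best marker list, plasmacytoid DC, had a mean log2 fold of 0.145 with 0 markers raised. The fibroblast list came next at -0.078, and the cDC1 list was lower still. In the adult pools cluster 23 held 96 and 102 UMIs of Socs3, beside 135 and 137 in the cDC1 class. For Cish it held 43 and 58 UMIs, beside 58 and 59 in the class. Its adult pools held 218 and 211 CPM of Socs3, against 25.5 and 36.5 CPM in the adult pools of cDC1 cluster 14, which was led by Epcam and Cd207. Cluster 23 held 97.7 and 120.1 CPM of Cish in the adult pools, against 9.21 and 1.14 CPM in cluster 14. For Csf2rb the adult pools of cluster 23 were at 291 and 294 CPM, against 63.8 and 65.1 CPM in cluster 14, and for Il2rg at 47.7 and 47.6 CPM, against 5.67 and 5.71 CPM. All 4 genes were several times higher in cluster 23, as a description of clusters made from the same cells. In cluster 14 itself, Cish was lower in the adult pools, at 9.21 and 1.14 CPM against 91.2 and 73.0 CPM in the neonatal pools, as was Csf2rb, at 63.8 and 65.1 CPM against 197 and 185 CPM. With cluster 23 left out of cDC1 at this resolution, Cish was lower in adults (log2 fold change -1.87, adjusted p = 0.00114), Csf2rb was lower (-0.33, adjusted p = 0.0236) and Il2rg was not called (1.12, adjusted p = 0.0990).

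**Figure D3:**
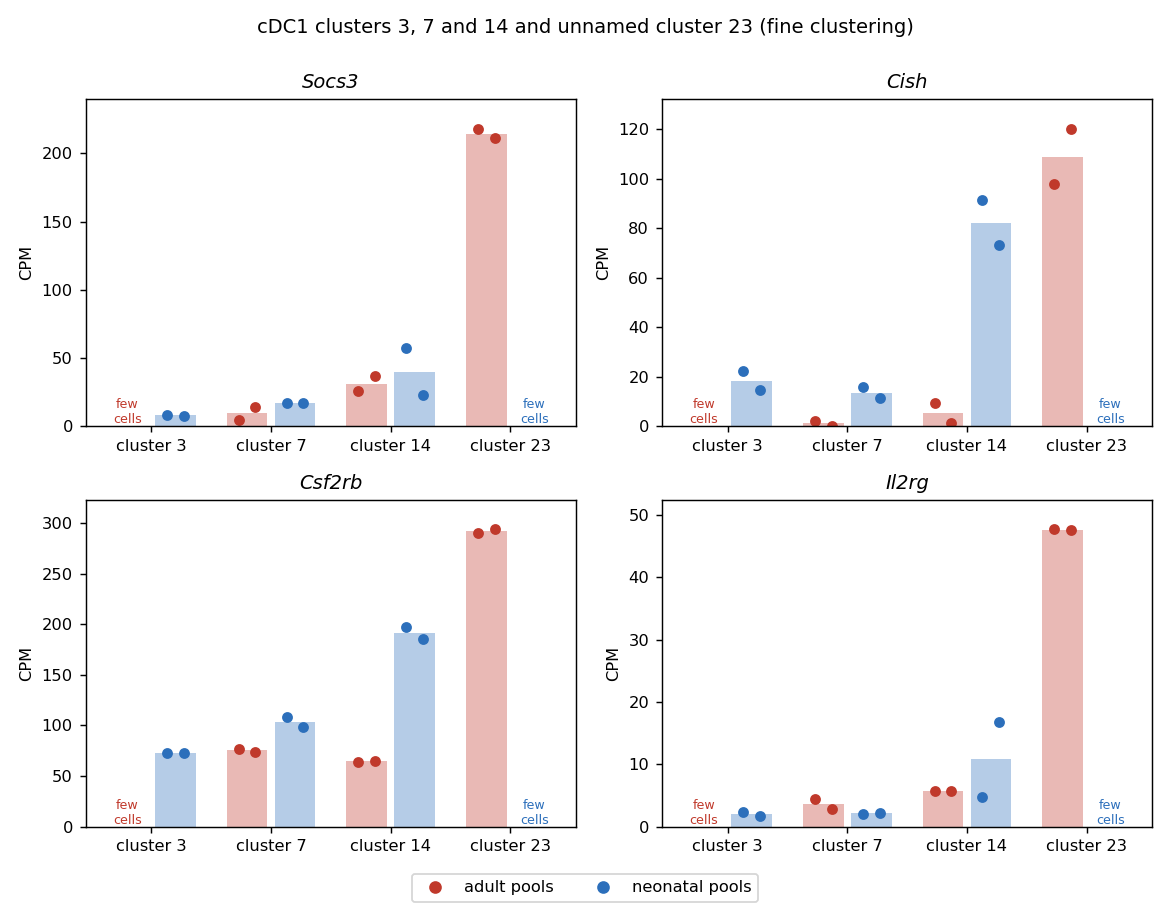
CPM of Socs3, Cish, Csf2rb and Il2rg in cDC1 clusters 3, 7 and 14 and in the unnamed cluster 23 of the finer clustering, with 1 point per pool, bars at the mean of an age (adult red, left; neonatal blue, right) and the words few cells where a pool had under 20 cells. The adult pools of cluster 23 hold 211 to 218 CPM of Socs3, above all other points shown, and in cluster 14 the adult pools lie below the neonatal ones for Cish and Csf2rb.

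The mature DC clusters differed among neonatal cells in several genes that also differed between ages. Neonatal cells of cluster 5 held 405 and 382 CPM of Il4ra, against 61.8 and 60.7 CPM in neonatal cells of cluster 10. They held 348 and 343 CPM of Il15ra, against 71.4 and 68.1 CPM in cluster 10. For Cish the neonatal pools were at 3.55 and 1.87 CPM in cluster 5, against 77.2 and 76.9 CPM in cluster 10, and for Socs3 at 4.74 and 5.61 CPM, against 36.7 and 42.9 CPM. Among neonatal cells, cluster 5 was high in the receptor genes Il4ra and Il15ra and nearly without Cish and Socs3.

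Within cluster 10, which held nearly all adult mature DCs, 0 of the 10 genes were called between ages, beside 6.84% of all genes, and 5 of them had an unadjusted p under 0.05. DESeq2 was not run there. Il4ra was at 88.6 and 76.1 CPM in the adult pools of cluster 10, against 61.8 and 60.7 CPM in the neonatal pools (log2 fold change 0.44, adjusted p = 0.347). Il15ra was at 105 and 71.3 CPM in the adult pools, against 71.4 and 68.1 CPM in the neonatal pools (log2 fold change 0.36, adjusted p = 0.488). Both signs were opposite to those of the class. Socs2 was at 345 and 380.4 CPM in the adult pools of cluster 10, against 452 and 506 CPM in the neonatal pools, without overlap but not called (log2 fold change -0.39 ± 0.14, adjusted p = 0.0820). Socs3 was at 84.0 and 53.9 CPM in the adult pools, against 36.7 and 42.9 CPM in the neonatal pools (log2 fold change 0.79 ± 0.29, adjusted p = 0.1015). Cluster 5 had 9 cells in each adult pool, too few to compare. At the finer clustering, mature DC clusters 17 and 19 differed in direction for Csf2rb, which was not tested there. In cluster 17, Csf2rb was at 866 and 839 CPM in the adult pools, against 520 and 442 CPM in the neonatal pools. In cluster 19 it was at 304 and 241 CPM, against 405 and 451 CPM. Cish was at 212 and 128 CPM in adult cluster 17, against 127 and 145 CPM in neonatal cells, and at most 21.2 CPM in cluster 19.

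**Figure D4:**
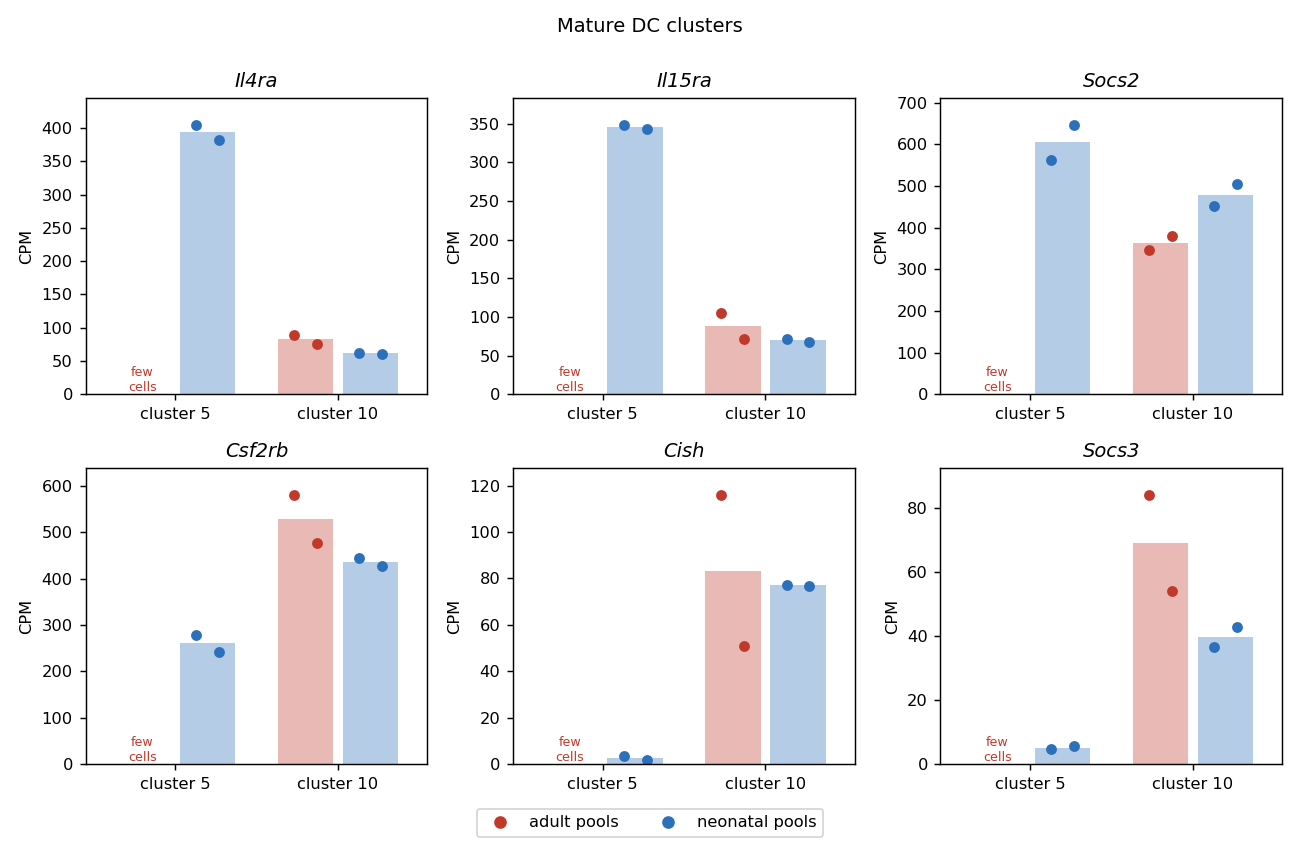
CPM of 6 genes in mature DC clusters 5 and 10, with 1 point per pool, bars at the mean of an age (adult red, left; neonatal blue, right) and the words few cells for the adult pools of cluster 5. Neonatal cluster 5 holds 382 to 405 CPM of Il4ra and 1.87 to 3.55 CPM of Cish, whereas cluster 10 holds 60.7 to 88.6 CPM of Il4ra and 50.7 to 116 CPM of Cish over the pools of both ages.

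Whether the age difference itself differed between classes was tested as an interaction of age and class with the pool as a block. Between cDC2 and cDC1 it differed for 5 of 10 genes, beside 7.72% of all genes tested. The age difference of Cish was lower in cDC2 than in cDC1 by a log2 difference of -2.88 ± 0.28 (adjusted p = 2.8e-22), and that of Socs3 by -1.83 ± 0.18 (adjusted p = 4.1e-22). Csf2rb differed by -0.76 ± 0.16 (adjusted p = 4.0e-05), Il13ra1 by -0.67 ± 0.17 (adjusted p = 0.00287) and Il2rg by -1.27 ± 0.37 (adjusted p = 0.0110). All 5 had the lower value in cDC2. The Il13ra1 call was lost without neonatal pool 1 (adjusted p = 0.0779), neonatal pool 2 (0.142) or adult pool 2 (0.186), and the Il2rg call without neonatal pool 1 (0.133), neonatal pool 2 (0.132) or adult pool 1 (0.126). Between mature DCs and cDC1 the age difference differed for 2 of 10 genes, beside 18.5% of all genes, with Il4ra at -1.85 ± 0.33 (adjusted p = 2.14e-05) and Il2rg at -2.43 ± 0.36 (adjusted p = 3.9e-07). Cish was not called there (1.20, adjusted p = 0.0625) but was without neonatal pool 2 (adjusted p = 0.00100) or adult pool 2 (adjusted p = 1.23e-07), Csf2rb was without adult pool 2 (adjusted p = 0.00268) and Socs1 without adult pool 1 (adjusted p = 0.0433). Between nonclassical and classical monocytes it differed for 2 of 9 genes, beside 8.08% of all genes, with Csf2rb at -0.76 ± 0.16 (adjusted p = 9.1e-05) and Il13ra1 at -0.52 ± 0.17 (adjusted p = 0.0395). The last call was lost without the pool block (adjusted p = 0.0874), without neonatal pool 1 (0.4245), without neonatal pool 2 (0.0815) and without adult pool 2 (0.62).

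The pathway lists below were counted over whole classes, whose make-up differed between the ages. Inside mature DC cluster 10, 9 list genes were called, against 26 over the class, beside 6.84% of all genes. Inside cDC1 clusters 1 and 9, 7 and 4 were called, against 18 over the class, beside 8.32% and 9.27% of all genes. The partner chains of these receptors were counted as a list of 12 genes. In cDC1, where 26.8% of all genes were called, 6 were tested, 4 were higher and 1 lower in adults, with a median log2 fold change of 0.54 beside 0.00 over all genes tested. Il7r, the IL-7 receptor chain that pairs with Il2rg, was at 27.7 and 23.9 CPM in the adult cDC1 pools, against 2.40 and 1.76 CPM in the neonatal pools (log2 fold change 3.69 ± 0.28, adjusted p = 4.7e-11). Csf2ra, the GM-CSF-binding chain that pairs with Csf2rb, was at 260 and 262 CPM in the adult cDC1 pools, against 195 and 182 CPM in the neonatal pools (log2 fold change 0.53 ± 0.06, adjusted p = 1.86e-07). Il3ra was the lower one (log2 fold change -0.87 ± 0.22, adjusted p = 0.00394). In cDC2, 4 of 7 partner chains were higher and 0 lower, beside 15.6% of all genes, among them Crlf2, the TSLP receptor (0.58 ± 0.12, adjusted p = 7.3e-04), and Il7r (0.89 ± 0.21, adjusted p = 0.00178). In mature DCs, 4 of 8 were higher and 1 lower, beside 30.1% of all genes. Il7r was at 314 and 264 CPM in the adult mature DC pools, against 113 and 122 CPM in the neonatal pools (log2 fold change 1.41 ± 0.12, adjusted p = 2.9e-09). Il21r, the IL-21 receptor and another partner of Il2rg, was the lower one, at 94.96 and 60.6 CPM in the adult pools, against 226 and 206 CPM in the neonatal pools (log2 fold change -1.36 ± 0.16, adjusted p = 3.6e-07). Neutrophils had 3 of 4 partner chains higher and 0 lower, beside 32.1% of all genes.

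Of the 21 other receptors that use Janus kinases, 4 of 10 tested were higher and 0 lower in adult cDC1, where 26.8% of all genes were called. In cDC2, 5 of 9 were higher and 1 lower, beside 15.6% of all genes, and in mature DCs 1 of 8 was higher and 0 lower, a smaller share than the 30.1% of all genes. Ifnlr1, a chain of the interferon lambda receptor, was at 11.2 and 20.5 CPM in the adult cDC1 pools, against 2.76 and 3.51 CPM in the neonatal pools (log2 fold change 2.33 ± 0.33, adjusted p = 3.8e-06). In neutrophils, 3 of 7 were higher and 1 lower, beside 32.1% of all genes. Csf3r, the G-CSF receptor that SOCS3 restrains, was at 2797 and 2862 CPM in the adult neutrophil pools, against 1146 and 1100 CPM in the neonatal pools (log2 fold change 1.29 ± 0.06, adjusted p = 2.4e-22). In nonclassical monocytes, 1 of 10 was higher and 3 were lower, beside 19.5% of all genes, with Lifr, the LIF receptor, at 12.9 and 18.7 CPM in the adult pools, against 74.4 and 60.5 CPM in the neonatal pools (log2 fold change -1.95 ± 0.24, adjusted p = 7.7e-12).

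Among the 11 kinases and STATs, 2 were higher and 1 lower in adult cDC1, a share near the 26.8% of all genes called. In cDC2, 2 were higher and 1 lower, beside 15.6% of all genes. In mature DCs 4 of 10 were higher and 1 lower, beside 30.1%, and in neutrophils 4 of 11 were higher and 0 lower, beside 32.1%. Stat5a, a STAT of the GM-CSF pathway, was at 27.7 and 26.7 CPM in the adult cDC1 pools, against 15.5 and 16.8 CPM in the neonatal pools (log2 fold change 0.82 ± 0.18, adjusted p = 8.0e-04). In mature DCs Stat4, a STAT of the IL-12 pathway, was at 317 and 223 CPM in the adult pools, against 109 and 120.1 CPM in the neonatal pools (log2 fold change 1.35 ± 0.14, adjusted p = 5.6e-08). In cDC2 Jak2, the kinase of the Csf2rb chain, was at 114.5 and 118 CPM in the adult pools, against 180.2 and 182 CPM in the neonatal pools (log2 fold change -0.50 ± 0.12, adjusted p = 0.00273).

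Of the 15 other inhibitors, 2 were higher, 7 lower and 6 not called in adult mature DCs, where 30.1% of all genes were called, with a median log2 fold change of -0.56 beside 0.01 over all genes tested. Sh2b3, the adaptor LNK, was at 39.1 and 47.3 CPM in the adult pools, against 119 and 111 CPM in the neonatal pools (log2 fold change -1.31 ± 0.19, adjusted p = 5.0e-06). Ptpn6, the phosphatase SHP-1, was at 51.7 and 53.2 CPM in the adult pools, against 116 and 114 CPM in the neonatal pools (log2 fold change -1.02 ± 0.17, adjusted p = 5.6e-05). Cbl, a ubiquitin ligase, was among the higher ones (0.79 ± 0.15, adjusted p = 2.4e-04). In cDC1, 2 of the 15 inhibitors were higher and 1 lower, under the 26.8% of all genes, and in nonclassical monocytes 1 was higher and 4 were lower, beside 19.5%.

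Of the 14 genes known to be induced by STATs, 6 of 8 tested were higher and 0 lower in adult neutrophils, beside 32.1% of all genes called, with a median log2 fold change of 0.87 beside -0.01 over all genes tested. Pim1, a kinase gene, was at 2871 and 3024 CPM in the adult neutrophil pools, against 1289 and 1219 CPM in the neonatal pools (log2 fold change 1.19 ± 0.06, adjusted p = 4.7e-21). In classical monocytes, 6 of 9 were higher and 1 lower, beside 18.7% of all genes. Ciita, the master regulator of MHC class II genes, was at 59.1 and 52.0 CPM in the adult classical monocyte pools, against 3.20 and 4.14 CPM in the neonatal pools (log2 fold change 4.10 ± 0.27, adjusted p = 1.53e-17). In mature DCs, 4 of 10 were higher and 1 lower, beside 30.1% of all genes, and the lower one was Irf1, an interferon-induced transcription factor. Irf1 was at 147 and 127 CPM in the adult mature DC pools, against 675 and 657 CPM in the neonatal pools (log2 fold change -2.17 ± 0.12, adjusted p = 7.4e-13). In cDC1, 2 of 8 were higher and 1 lower, beside 26.8% of all genes, with Ccl22, a chemokine gene induced by STAT6, at 138 and 135 CPM in the adult pools, against 21 and 17.2 CPM in the neonatal pools (log2 fold change 2.90 ± 0.11, adjusted p = 5.0e-17).

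The genes whose levels followed a member most closely were found over 45 class and pool sums from 16 classes, as Pearson's r of log2(CPM + 1) over 10365 genes. These points share pools and libraries, so the values are descriptions. Csf2rb was followed most closely by Ncf1 (r = 0.939), Btk (r = 0.874) and its neighbour Csf2rb2 (r = 0.866). For Il13ra1 the nearest genes were Clec12a (r = 0.905), Csf2ra (r = 0.901) and Lrrk2 (r = 0.895). For Il2rg the nearest was Pdcd4 (r = 0.846), for Il4ra they were Plk2 (r = 0.803) and Stat3 (r = 0.8), and for Ifngr1 Nptn (r = 0.8). Socs2 was nearest to Pakap (r = 0.755), Ccr7 (r = 0.752) and Tnfrsf4 (r = 0.749), Il15ra to Zfc3h1 (r = 0.771), Socs3 to S100a6 (r = 0.748) and Cish to Lmna (r = 0.738). Socs1, with the fewest UMIs of the 10 genes (706), reached no more than r = 0.64. Among the members themselves, the highest r was that of Socs3 with Il13ra1 (r = 0.676), and the lowest that of Socs2 with Ifngr1 (r = -0.653).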

How the data were processed

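Single-cell 3′ RNA libraries (10x Genomics Chromium, called v2 in the labels' protocols, which also name TotalSeq-B hashtags; the chemistry was not checked) were made from sorted lung YFP+ cells of 2 adult and 2 neonatal pools. The authors deposited 1 matrix of raw UMI counts per gene and barcode; Cell Ranger 6.1.2, Seurat 4.2.0 and mm10 are named per the submitters' processing notes, and the pool of a cell was read from its barcode suffix, which the series text numbers. Whether reads were filtered otherwise is not given in the sources used here.

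Cells with at least 500 genes, at least 1000 UMIs, at most 10% mitochondrial UMIs and at most 20% of hashtag UMIs from the other hashtag were kept, and Scrublet doublets (20 and 14 adult, 105 and 85 neonatal) were removed. Clustering (scanpy 1.11.5, leidenalg 0.10.2, 30 components, 15 neighbours, resolution 1) used 2987 genes without the 10 members and gave 23 clusters, named from marker lists; cell types may differ from the study's own. UMIs were summed per pool and class and tested with edgeR 4.0.16 (TMM, filterByExpr, robust quasi-likelihood), with p-values adjusted over all genes tested. Values after ± are SE for log2 fold changes. Floors are 3 counts, and counting intervals (95%, exact) cover counting error only, since UMIs of a pool share its library. A simulation with known fold changes was used to test the code. Same-numbered pools did not deviate together (r between -0.221 and 0.039), so ages were compared without a replicate block.

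The members, marker lists and pathway lists were chosen with earlier results of these data known. All 10 members are accounted for in every class, other pathway genes by smallest p among those called, up to 4 per list and class, and likeness genes by the highest r. DESeq2 1.42.0, a stricter cell filter (1000 genes, 2000 UMIs, 5% mitochondrial), thinning to 1500 UMIs per cell, other clusterings, gene filters and left-out pools were tried as alternatives, and comparisons inside clusters were added after seeing the data.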

Additional observations from a re-analysis of the deposited data

Results flagged for a closer look

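For 9 gene and class pairs the age difference itself differed between cell classes in edgeR's interaction test with the pool as a block. Each value is the difference of log2 fold changes. Of all genes tested, 7.72% differed between cDC2 and cDC1, 18.5% between mature DCs and cDC1 and 8.08% between the monocyte classes. The 2 of 10 members for mature DCs are near that share. Against cDC1, cDC2 had a lower age difference for Socs3 (-1.83), Cish (-2.88), Il13ra1 (-0.67), Il2rg (-1.27) and Csf2rb (-0.76). For Cish the change was downward in cDC2 and upward in cDC1, and the cDC1 direction turned inside cDC1 clusters 1 and 9, so the difference depends on how cDC1 cells are grouped. Mature DCs had a lower age difference than cDC1 for Il4ra (-1.85) and Il2rg (-2.43). The Il4ra value rests on the mature DC clusters together, since within cluster 10 the age difference of Il4ra was 0.44 (adjusted p = 0.347). The cDC1 side of the Socs3 and Csf2rb values also depends on grouping, since within cDC1 cluster 1 their log2 fold changes were -0.36 and -0.12, and within cluster 9 that of Csf2rb was -0.97. The same holds for Il13ra1 and Il2rg. Within cluster 1, Il13ra1 was at 0.06 (adjusted p = 0.922) and Il2rg had too few UMIs to test. Within cluster 9 they were at 0.93 (adjusted p = 0.0465) and 0.96 (adjusted p = 0.484). Nonclassical monocytes had a lower age difference than classical monocytes for Il13ra1 (-0.52) and Csf2rb (-0.76). With neonatal pool 1, neonatal pool 2 or adult pool 2 left out in turn, the Il13ra1 difference between cDC2 and cDC1 was no longer called (-0.73, -0.62 and -0.49). The same pools left out also cost the monocyte Il13ra1 call (-0.43, -0.64 and -0.28), as did leaving out the pool block (-0.53, adjusted p = 0.0874). The Il2rg difference between cDC2 and cDC1 was no longer called without neonatal pool 1, neonatal pool 2 or adult pool 1 (-1.27, -1.25 and -1.21).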

How the results depend on the processing

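Of 945 member values under all alternatives, 874 kept their call, 42 lost a call, 20 gained one and 9 changed sign with a call in either fit. Sign changes between values that were both uncalled count among the 874. DESeq2 size factors inside edgeR changed the call of 0 of 89. Numbers without a unit here are counts of genes called, in the order all genes, members and pathway list genes where more than 1 is given. With DESeq2's Wald test, which called fewer genes, cDC1 had 1309 genes against 2659 with edgeR, cDC2 439 and 4 pathway genes against 1314 and 16, mature DCs 1015 and 16 pathway genes against 2304 and 26, nonclassical monocytes 672 and 11 pathway genes against 1686 and 19, classical monocytes 660, 1 and 6 against 1607, 3 and 17, neutrophils 828 and 10 pathway genes against 1858 and 21, and basophils or mast cells 64 against 181. With cells thinned to 1500 UMIs, cDC1 had 925, 3 and 9, cDC2 310, 2 and 1, mature DCs 1079, nonclassical monocytes 1051 and 12 pathway genes, classical monocytes 621, 1 and 7, neutrophils 1156 and 13 pathway genes, and basophils or mast cells 117 and 1 member. The stricter cell filter, which kept 13 cells in each adult neutrophil pool, left 531, 3 and 6 in neutrophils and 13 in T cells. T cells, with 45 genes and 1 pathway gene, had 115 and 2 with no low-count filter, 69 with a stricter one, 77 with doublets kept, and 99 and 2 at resolution 2. Basophils or mast cells had 3 pathway genes with no low-count filter. cDC2 had 7 pathway genes at resolution 2. The numbers do not pair the pools; the replicate block kept 57 of 60 member values and gained the calls of Csf2rb in cDC2, Socs3 in classical monocytes and Il2rg in neutrophils, and basophils or mast cells then had 2 pathway genes. Without the pool block, 1 member differed in its age effect between the monocyte classes. At resolution 2 the cDC1 log2 fold changes of Cish and Csf2rb reversed to -1.87 and -0.33. Within cluster 1 (774, 3 and 7) those of Socs3, Cish and Csf2rb reversed to -0.36, -2.92 and -0.12, and within cluster 9 (622, 4 and 4) those of Cish and Csf2rb to -1.22 and -0.97. Within cluster 10 of mature DCs (378, 0 and 9) Il4ra and Il15ra reversed to 0.44 and 0.36. These fits compare other cells than the main classes do, and the cause of the sign changes was not tested. The reversed values of Socs3 and Csf2rb in cluster 1 and of Il4ra and Il15ra in cluster 10 were not called. Leaving out 1 pool at a time gave 2071 to 2264 genes, 6 to 7 members and 16 to 21 pathway genes in cDC1, 760 to 1165, 5 to 6 and 10 to 12 in cDC2, 1391 to 1909, 7 to 7 and 19 to 23 in mature DCs, 1149 to 1270, 2 to 3 and 13 to 16 in nonclassical monocytes, 1212 to 1352, 2 to 4 and 11 to 15 in classical monocytes, 1204 to 1547, 6 to 7 and 14 to 17 in neutrophils, 96 to 193, 0 to 1 and 1 to 3 in basophils or mast cells, and 19 to 290, 0 to 1 and 1 to 3 in T cells. For the differences between classes the ranges were 362 to 539 genes and 3 to 4 members for cDC2 and cDC1, 1037 to 1399 and 2 to 4 for mature DCs and cDC1, and 408 to 529 and 1 to 2 for the monocyte classes. Where the cause of other changes is not named, the cause was not tested. Depth limits Socs2, Cish and Il15ra, for which an age had 5 or fewer UMIs in several classes. Among these were cDC1 and cDC2 for Socs2 and cDC2 for Il15ra. It also limits Socs1 in basophils or mast cells, with 4 adult UMIs.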
